A study of Rattus norvegicus with 48 samples.

Results

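Postconditioning was added to livers that had already been preconditioned, and gene expression in the liver was compared with that in livers that had been preconditioned only. The comparison takes 20 of the 48 arrays of the study, 10 from rats given both interventions (IPC+IPO, animals 31 to 40) and 10 from rats given preconditioning alone (IPC, animals 11 to 20), and covers all 14506 genes with a symbol of their own on the array. Each array held total RNA from a biopsy of the right liver lobe of 1 male Wistar rat, and the rats are separate animals per the labels. In IPC+IPO livers the blood flow was stopped for 10 min and restored for 10 min, then stopped to the whole liver for 30 min, and then returned in 3 cycles, each with 30 sec open and 30 sec closed. Biopsies were taken after 30 min of reperfusion. IPC livers had the same preconditioning, ischemia and reperfusion without the 3 cycles. Rats with the cycles but no preconditioning (IPO, n = 10), rats with ischemia and reperfusion alone (IRI, n = 10) and sham rats without ischemia (n = 8) entered the same model and are used here to put the values into context. All rats were operated on under anaesthesia with an opened abdomen, the sham group included. No group in the study had the conditioning cycles without the long ischemia.

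Ischemic preconditioning is a short interruption of blood flow before a long one, and ischemic postconditioning is a stuttered return of flow after it. Both are known as ways to lessen reperfusion injury, in the liver and in the heart, and both are described as acting through kinases of survival signalling, adenosine and the mitochondria. The first minutes of reperfusion are also when immediate-early transcription factors, heat shock proteins, antioxidant genes and chemokines respond. The comparison asks whether the second intervention shifts expression in a liver that has already had the first, and, where no shift was detected, how large a shift the measurements leave room for.

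The arrays of the 2 groups were not all alike. The spread of an array, which is the standard deviation of its log2 values over the 14506 genes, had a low of 1.498, a median of 1.918 and a high of 1.97 in IPC+IPO and a low of 1.71, a median of 1.8823 and a high of 1.93 in IPC. IPC+IPO animals 37 and 38 had the low values of their group, 1.67 and 1.498, and the other 8 lay between 1.85 and 1.97. The group means were 1.857 ± 0.153 in IPC+IPO and 1.85 ± 0.0827 in IPC (SD, n = 10 each), a difference of 0.0067 (two-sided permutation p = 0.92). Without animals 37 and 38 the difference was 0.0749 (permutation p = 0.0304). These 2 had the lowest spread of their group and no IPC array was left out, so the difference had to rise. That p is therefore no test of a difference between the groups. The list medians are given with and without animals 37 and 38, as are the gene differences that change sign or move by over 1.5 times without them. IPC animal 18 carried transcripts of the exocrine pancreas that no other array had at such levels. Their mean over 9 genes was 10.11 on the log2 scale, beside 5.58 on the next array. Limma called 0 genes in IPC+IPO against IPC with that array and 0 without it. That count therefore does not show how far the array moved single genes. Hepatocyte markers were bright on all 20 arrays. The mean of the 15 measured ones lay between 11.30 and 12.07 in IPC+IPO and between 11.57 and 12.08 in IPC on the log2 scale, with albumin (Alb) at 13.25 ± 0.160 in IPC+IPO and 13.21 ± 0.225 in IPC. How many arrays there are is among the limits on precision.

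**Figure D1:**
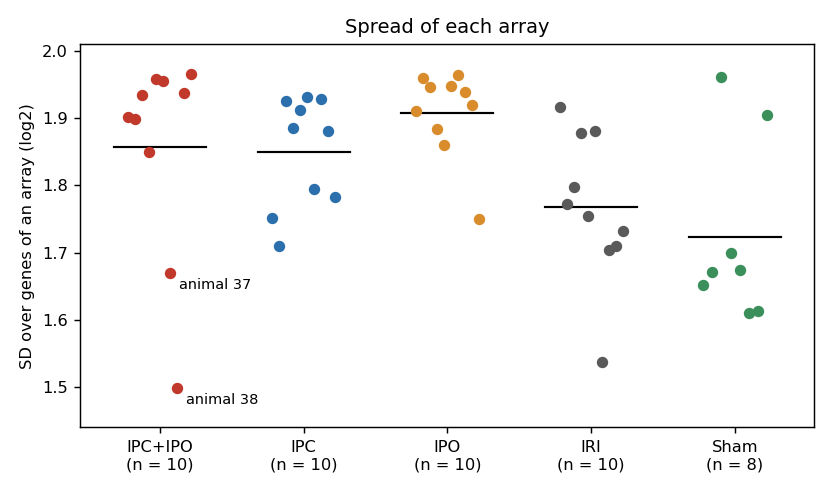
Spread of each array (SD over genes of the log2 values) by group; each point is 1 animal and each line a group mean. IPC+IPO animals 37 and 38 lie at 1.67 and 1.498, below the other 8 animals of their group at 1.85 to 1.97.

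No gene was called between IPC+IPO and IPC. Limma called 0 of 14506 genes (0%) at a Benjamini-Hochberg adjusted p under 0.05, and the smallest adjusted p was 0.9998. At an unadjusted p under 0.05 there were 235 genes (1.62%), 119 higher (0.82%) and 116 lower (0.8%) in IPC+IPO. That threshold would pass a share of about 0.05 of genes on average if none differed, so this count alone is no sign of a difference. No gene had groups that do not overlap. The differences lay around 0, with 7229 genes above and 7277 below and a median of -0.00055 on the log2 scale. Their median size was 0.0644, 90% were under 0.17 and 99% under 0.339. In 2 genes, Ubd and Ugt2b, the estimate was over 2-fold, and in 22 it was over 1.5-fold.

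A count of 0 does not show that expression was the same, and the intervals give the size that could still be there. The 95% interval of a gene's difference reached a median of 0.239 on the log2 scale to either side of the estimate (interquartile range 0.2 to 0.306, and from 0.101 to 1.95 over all genes). Taking the bound farthest from 0 in either direction, the median gene could differ by at most 1.24-fold, 90% of genes by at most 1.42-fold and 99% by at most 1.77-fold. For 13801 genes (95.1%) the whole interval lay within 1.5-fold, and for 14439 (99.5%) within 2-fold. A tighter limit of 1.25-fold held 7681 genes (53%). These are intervals for 1 gene at a time. With intervals widened by Bonferroni so that they hold for all genes at once, 12136 genes (83.7%) lay within 2-fold and 3750 (25.9%) within 1.5-fold, and the median gene's farthest bound was 1.62-fold. Without IPC+IPO animals 37 and 38 limma again called 0 genes, with 791 (5.45%) at an unadjusted p under 0.05, a median size of 0.103, and 88.853% of genes within 1.5-fold.

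**Figure D2:**
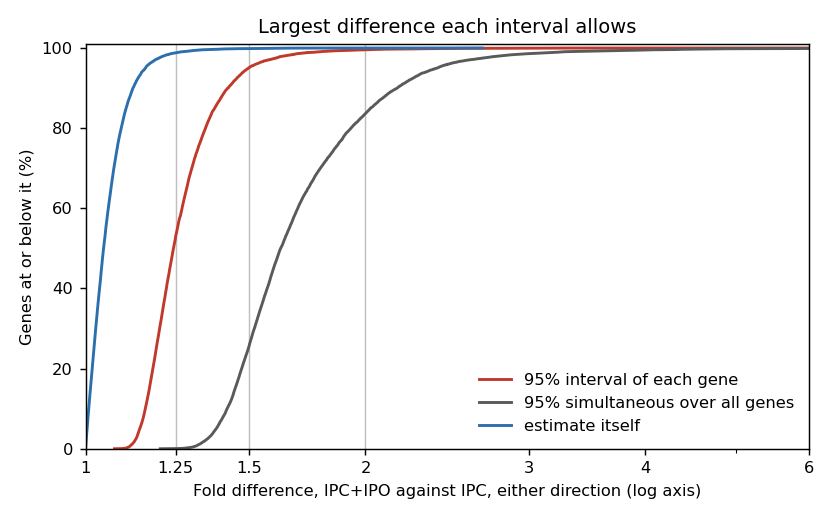
Cumulative share of the 14506 genes (percent, vertical axis) against fold difference between IPC+IPO and IPC in either direction (log axis), for the estimate itself, for the bound of its 95% interval farthest from 0, and for that bound with intervals simultaneous over all genes. Grey lines mark 1.25-fold, 1.5-fold and 2-fold; at 1.5-fold the curve of single intervals stands at 95.1% and that of simultaneous ones at 25.9%.

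The limits were not even over the genes. Among the dimmest 33.3% of genes 99.07% lay within 1.5-fold, among the middle ones 97.29% and among the brightest 89.06%. A narrow interval of a dim gene is no sign that its transcript level is narrowly known, since signal near background is compressed on arrays. In 67 genes the interval reached past 2-fold, 30 of them farther upward and 37 farther downward. The 37 include the 9 exocrine pancreas genes that were high in IPC animal 18, with SDs of 0.081 to 0.398 in IPC+IPO and 1.40 to 1.86 in IPC. Of the 67, 45 were among the brightest genes. The function lists used here, chosen with earlier results known, held 20 of the 67 (29.85%), beside 539 of all genes measured (3.72%). Among the 20 were immediate-early and chemokine genes. Atf3, a stress-induced transcription factor, had bounds of 0.392-fold and 1.77-fold, Cxcl1, a neutrophil-attracting chemokine, of 0.328-fold and 1.38-fold, and Dbp, a transcription factor of clock output, of 0.674-fold and 2.75-fold. For such genes any difference within those bounds could still be there.

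The gene with the smallest p was Mgat2 (probe set 10884931), which codes for an enzyme of N-glycan branching in the Golgi. Its log2 value had a low of 7.49, a median of 8.67 and a high of 8.997 in IPC+IPO, against a low of 8.76, a median of 9.11 and a high of 9.31 in IPC. All 10 IPC+IPO animals lay below the IPC median and 7 below the lowest IPC animal, yet the ranges overlapped. The means were 8.56 ± 0.419 in IPC+IPO and 9.05 ± 0.188 in IPC (SD, n = 10 each), against 8.91 ± 0.223 in IPO, 8.98 ± 0.354 in IRI and 8.61 ± 0.328 in sham. The difference was -0.50 ± 0.14 (SE; 95% interval -0.77 to -0.22; limma p = 0.000738, adjusted p = 0.9998). Its interval spans 0.586-fold to 0.859-fold. Without animals 37 and 38 it was -0.33 (adjusted p = 0.727). Renewed quantile normalization gave -0.49 with an adjusted p of 0.0255, the single alternative of 31 in which limma called it. The limma adjusted p was 0.0932 with array spread as a covariate (-0.51) and 0.101 with array weights (-0.36). Leaving out the 14 arrays of lowest spread gave -0.34 (adjusted p = 0.332). Apart from leaving out animals 37 and 38, the other alternatives had an adjusted p of 0.996 or more.

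Other genes with small p values had lower estimates in IPC+IPO. Krt81, a hair-type keratin gene, ranged from 5.73 to 6.26 with a median of 5.94 in IPC+IPO, and from 6.01 to 6.63 with a median of 6.16 in IPC. Of the IPC+IPO animals 8 lay below the lowest IPC animal. The difference was -0.28 ± 0.09 (limma adjusted p = 0.9998). Ltbp4, which codes for a matrix protein that binds latent TGF-beta, differed by -0.32 ± 0.10, and Plcg2, a phospholipase of immune receptor signalling, by -0.28 ± 0.09. Gpd2, the mitochondrial glycerol-3-phosphate dehydrogenase, differed by -0.30 ± 0.10 and Fhl1, which codes for a LIM domain protein, by -0.22 ± 0.07. In none of these 5 genes did the interval reach past 1.5-fold.

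Among the genes of small p with higher estimates was Fmo1, a flavin monooxygenase of drug metabolism. It had a low of 7.81, a median of 9.20 and a high of 10.17 in IPC+IPO, against 7.61, 8.52 and 9.36 in IPC. In 9 of 10 IPC+IPO animals it was above the IPC median, and 9 of 10 IPC animals lay inside the IPC+IPO range. The difference was 0.64 ± 0.21 (limma p = 0.00353, adjusted p = 0.9998), with an interval from 1.17-fold to 2.09-fold. Sham livers were at 9.51 ± 0.387 (SD, n = 8). Nat8, an acetyltransferase gene, differed by 0.71 ± 0.25, with 9.31 in the highest IPC+IPO animal and 7.59 in the highest IPC animal. Blvra, the biliverdin reductase that makes bilirubin, differed by 0.44 ± 0.15 and lay above the IPC median in all 10 IPC+IPO animals. Its values ran from 6.70 to 7.29 in IPC+IPO and from 5.45 to 7.09 in IPC. Nat8 and Cyp2b2, like Fcgr2b and Ugt2b below, belong to families of closely similar genes whose transcripts may share signal on the array.

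Another was Prim1, the catalytic subunit of DNA primase, which had a low of 5.22, a median of 5.70 and a high of 6.24 in IPC+IPO, against 4.11, 5.23 and 5.84 in IPC. Of the IPC+IPO animals 4 were above the highest IPC animal, and IPC animals 11 and 12 were lowest, at 4.20 and 4.11. The difference was 0.67 ± 0.21 (limma p = 0.00288, adjusted p = 0.9998). Cxcl13, a B-cell chemokine, differed by 0.69 ± 0.23, with 6 IPC+IPO animals above the highest IPC animal and 3 below the IPC median. Rsad2, an interferon-induced antiviral gene, differed by 0.50 ± 0.16, and Mid1, a microtubule-associated ubiquitin ligase, by 0.39 ± 0.12. The upper bounds were 2.15-fold for Prim1, 2.21-fold for Cxcl13, 1.76-fold for Rsad2 and 1.56-fold for Mid1. In these 7 genes of higher estimate the size without animals 37 and 38 was between 0.42 for Mid1 and 0.82 for Nat8, and limma called none of them.

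**Figure D3:**
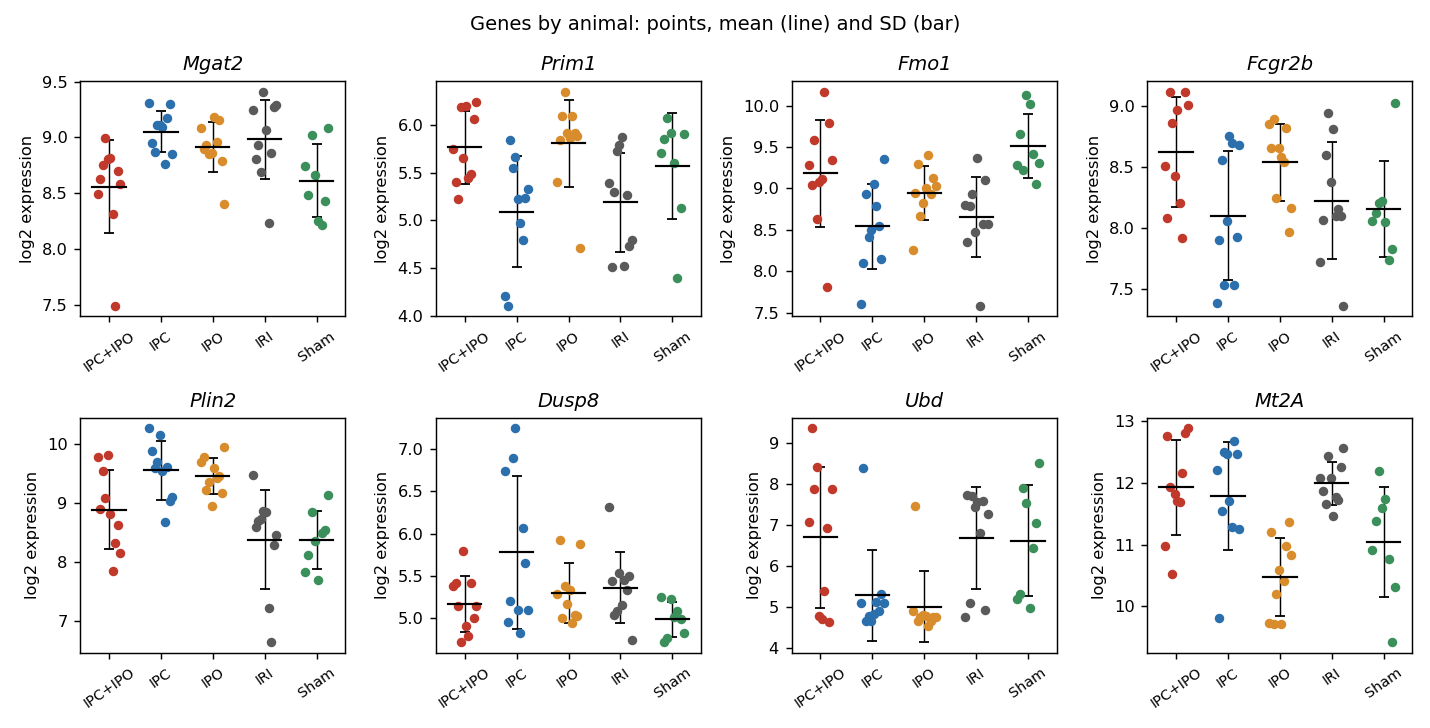
Log2 expression of 8 genes in each animal by group; points are animals, lines group means and bars SDs (n = 10, sham n = 8). Mgat2, Plin2 and Dusp8 have lower means and Prim1, Fmo1, Fcgr2b and Ubd higher means in IPC+IPO than in IPC, with overlapping ranges throughout; Mt2A has close means in those 2 groups.

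The 2 genes with the largest estimates were uneven from animal to animal. Ubd (probe set 10830854), which codes for the ubiquitin-like protein FAT10, had a low of 4.63, a median of 6.99 and a high of 9.35 in IPC+IPO, against a low of 4.65, a median of 4.99 and a high of 8.38 in IPC. IPC+IPO animals 31, 32, 33, 34, 38 and 40 lay at 6.92 or above, while in IPC animal 12 alone was above 5.31. The difference was 1.42 ± 0.54 (95% interval 0.33 to 2.51; limma p = 0.012, adjusted p = 0.9998), and the interval reaches 5.69-fold. Ubd averaged 5.00 ± 0.867 in IPO, 6.68 ± 1.25 in IRI and 6.61 ± 1.35 in sham, so high and low animals also occurred where no preconditioning was given. Ugt2b (probe set 10771943), a UDP-glucuronosyltransferase gene, was at 5.32, 5.70 and 5.49 in IPC+IPO animals 34, 37 and 38 and at 10.74 or more in the other 7. In IPC it lay between 9.23 and 11.40. The difference was -1.30 ± 0.97 with an interval from 0.105-fold to 1.56-fold, the widest of all genes, and it was -0.38 without animals 37 and 38. Animals at such low values also occurred in IPO and sham, where the lowest were 3.96 and 4.58.

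By function, no member of the 20 function lists or the 8 cell marker lists was called, and the lists are described by counts and medians only. Over the 648 genes on any list, 13 were higher and 6 lower at an unadjusted p under 0.05, which is 2.93% beside 1.62% of all genes. Both shares are below the 0.05 that such a threshold passes on average when nothing differs. Of these 648, 628 had intervals within 2-fold and 526 (81.2%) within 1.5-fold, beside 99.5% and 95.1% of all genes. List medians ran from -0.214 to 0.132 beside -0.00055 for all genes, with 13 above and 15 below 0. In 13 lists the median changed its sign without IPC+IPO animals 37 and 38, when the median over all genes was 0.0068. Bare values in brackets after a list median or a gene difference are those without these 2 animals. In a biopsy of mixed tissue, fewer cells of a type and less RNA per cell cannot be told apart.

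Immediate-early genes, the transcription factors switched on first after a stimulus, had 24 of 30 members below 0 and a median of -0.149 (-0.101). Myc, a growth-promoting transcription factor, had a low of 5.58, a median of 7.17 and a high of 8.08 in IPC+IPO, against 6.14, 7.74 and 8.78 in IPC. The ranges overlapped widely, and the difference was -0.65 ± 0.29 (limma p = 0.0313, adjusted p = 0.9998). Jund, a subunit of AP-1, differed by -0.42 ± 0.22 (-0.23). Of the 30, 13 had an interval within 1.5-fold and 25 within 2-fold, so this list was among the less tightly bounded. MAPK feedback genes, which switch kinase signalling off again, had a median of -0.075 (0.020) over 15. Among them Dusp8, a dual-specificity phosphatase, ran from 4.71 to 5.79 with a median of 5.14 in IPC+IPO, and from 4.82 to 7.24 with a median of 5.42 in IPC. IPC animals 11, 14, 15 and 18 were above every IPC+IPO animal. The difference was -0.61 ± 0.22 (limma p = 0.00801, adjusted p = 0.9998). The 20 survival kinase genes, which hold the pathways named for both interventions, had a median of -0.035 (0.091) and 18 within 1.5-fold. In Prkce, the epsilon isoform of protein kinase C, the difference was 0.18 ± 0.08 and the interval reached 1.27-fold.

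Chaperones and antioxidant genes had medians closer to 0 with all animals than without animals 37 and 38. The 20 heat shock genes had a median of 0.046 (0.172), 17 within 1.5-fold and all 20 within 2-fold. Hspd1, the mitochondrial chaperonin, averaged 9.86 ± 0.443 in IPC+IPO and 9.67 ± 0.313 in IPC, and its partner Hspe1 10.98 ± 0.163 in IPC+IPO and 10.77 ± 0.367 in IPC. The difference of Hspd1 was 0.19 ± 0.19 (0.38). The interval of Hspd1 spans 0.875-fold to 1.49-fold and that of Hspe1 0.988-fold to 1.36-fold. Genes of endoplasmic reticulum stress had a median of 0.030 (0.151) over 22. The 29 metallothionein and antioxidant genes had a median of 0.003 (0.086). Mt1 and Mt2A, metallothioneins that bind zinc and copper, differed by -0.08 ± 0.24 (-0.05) and 0.14 ± 0.31. Mt2A had a low of 10.52, a median of 11.88 and a high of 12.89 in IPC+IPO, against 9.81, 11.96 and 12.68 in IPC, so the medians were close and the ranges largely shared. The interval of Mt1 spans 0.672-fold to 1.33-fold. Srxn1, a sulfiredoxin under control of NRF2, differed by -0.22 ± 0.09 and lay below the IPC median in all 10 IPC+IPO animals. Nfe2l2, the gene of NRF2 itself, differed by -0.39 ± 0.22 (-0.13).

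In metabolism, genes of lipid synthesis had all 17 members below 0 and the lowest list median, -0.214, but the median was 0.016 without IPC+IPO animals 37 and 38. Of the 17, only 7 had an interval within 1.5-fold and 16 within 2-fold. Fdps, an enzyme of the mevalonate pathway, averaged 10.69 ± 0.593 in IPC+IPO and 10.99 ± 0.266 in IPC, with animal 37 lowest at 9.23, and differed by -0.30 ± 0.18 (-0.09). Cyp51, a later enzyme of cholesterol synthesis, differed by -0.28 ± 0.15 (-0.16). Among 22 genes of fat oxidation and fasting, with a median of 0.071 (0.181), Plin2, which coats lipid droplets, had a low of 7.85, a median of 8.85 and a high of 9.82 in IPC+IPO, against 8.68, 9.61 and 10.27 in IPC. In 8 of 10 IPC+IPO animals it was below the IPC median, and the difference was -0.67 ± 0.25 (limma p = 0.0112, adjusted p = 0.9998; -0.47 without animals 37 and 38). Pdk4, a kinase that turns pyruvate dehydrogenase off in fasting, differed by -0.39 ± 0.33 (-0.21).

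Drug and bile acid genes had the highest list median, 0.132 (0.206), with 24 of 31 above 0. Of the 31, 19 had an interval within 1.5-fold and 27 within 2-fold. Cyp2e1, an ethanol-oxidizing cytochrome P450, averaged 11.78 ± 0.301 in IPC+IPO and 11.52 ± 0.278 in IPC, and Cyp2b2, an inducible one, 8.43 ± 0.874 in IPC+IPO and 7.79 ± 0.849 in IPC. Cyp2e1 differed by 0.27 ± 0.11 and Cyp2b2 by 0.64 ± 0.29, and neither was called by limma (adjusted p = 0.9998 each). Of 63 respiratory chain genes 49 were above 0, with a median of 0.089 (0.144). Ndufb3, a subunit of complex I, differed by 0.32 ± 0.13. Of the 63, 60 (95.2%) lay within 1.5-fold, beside 95.1% of all genes. The 70 cytosolic ribosomal protein genes were split evenly around 0, 35 above and 35 below, with a median of -4.6e-05 (0.041) and 67 (95.7%) within 1.5-fold. Rpsa had the smallest p of them at -0.34 ± 0.17 (-0.14).

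Inflammatory genes were among the loosest. Of 27 NF-kB and inflammation genes, with a median of -0.003 (-0.057), 17 lay within 1.5-fold. Il6, the interleukin that drives the acute phase, ran from 3.29 to 4.08 in IPC+IPO and from 3.45 to 5.43 in IPC, and the difference was -0.36 ± 0.14 (limma p = 0.0142, adjusted p = 0.9998). These values are near the dim end of the arrays. Cxcl10, an interferon-induced chemokine, was at 9.46 to 10.48 in IPC animals 15, 18 and 19 and at 6.72 or less in the other 7, while in IPC+IPO animal 38 was highest at 9.11. Its difference was -0.65 ± 0.45. The 29 interferon genes had a median of -0.043 (0.032). All 21 acute phase genes and all 26 hypoxia genes lay within 1.5-fold, beside 95.1% of all genes. Their medians were 0.034 (0.116) and -0.027 (0.011). Clock genes were the least bounded list, with 4 of 15 within 1.5-fold and a median of -0.035 (0.078). Dbp differed by 0.45 ± 0.51, Bmal1, a core activator of the clock, by -0.41 ± 0.33 and Tef, a clock output factor, by 0.33 ± 0.17. The labels used here give no hour of the operation.

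Marker lists of liver cell types had medians between -0.046 and 0.108. Hepatocyte markers stood at 0.041 (0.124), Kupffer cell markers at 0.0004 (0.110) and endothelial markers at 0.088 (0.275). Neutrophil markers stood at 0.071 (-0.038), stellate cell markers at -0.046 (0.016) and cholangiocyte markers at -0.005 (0.091), and these 3 changed sign without animals 37 and 38. Lymphocyte markers stood at 0.028 (0.012) and erythroid and platelet markers at 0.108 (0.104). Fcgr2b, an Fc receptor of sinusoidal endothelium, had a low of 7.92, a median of 8.68 and a high of 9.11 in IPC+IPO, against 7.39, 7.99 and 8.75 in IPC. Of the IPC+IPO animals 5 were above the highest IPC animal, and the difference was 0.52 ± 0.19 (limma p = 0.00876, adjusted p = 0.9998; 0.66 without animals 37 and 38). Oit3, another gene of sinusoidal endothelium, differed by 0.30 ± 0.14. Of the 13 endothelial markers 9 were above 0 and 4 below, the lowest at -0.22. Arg1, the urea cycle arginase of hepatocytes, differed by 0.25 ± 0.12. All 15 hepatocyte and all 17 lymphocyte markers lay within 1.5-fold, beside 95.1% of all genes.

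**Figure D4:**
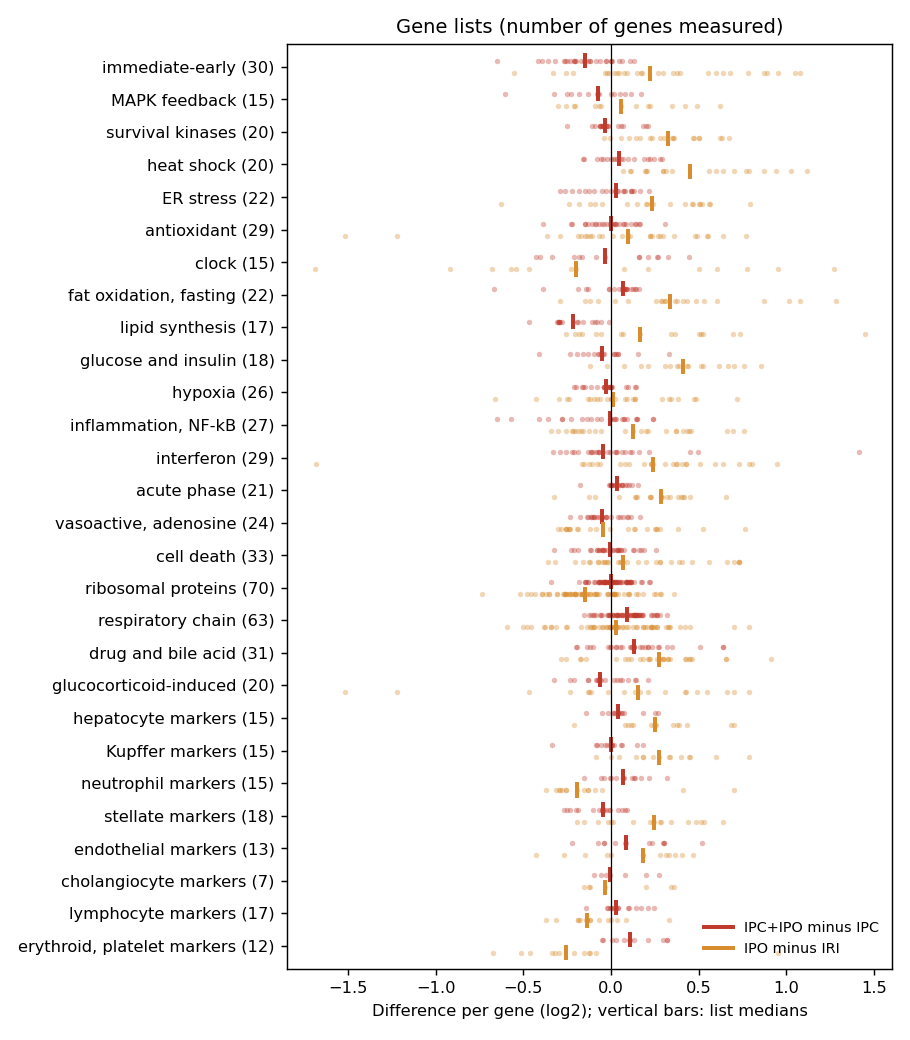
Difference of every measured gene on the 28 lists (points, log2) for IPC+IPO minus IPC (upper row of each list) and IPO minus IRI (lower row), with the list medians as bars. The IPC+IPO minus IPC medians lie between -0.214 and 0.132, and Ubd, on the interferon list, is the farthest point at 1.42.

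The same cycles given without preconditioning offer a scale for these limits, because IPO against IRI uses other animals and has 10 arrays a group. The standard error of each gene is the same by construction, since the model takes 1 variance per gene over all groups. Within groups the median SD of a gene was 0.173 in IPO, 0.312 in IRI, 0.28 in IPC+IPO and 0.24 in IPC. In IPO against IRI limma called 3307 genes (22.8%), 1797 higher (12.4%) and 1510 lower (10.4%). The median size of the difference was 0.217 in IPO against IRI, beside 0.0644 in IPC+IPO against IPC, and 748 genes were over 1.5-fold, beside 22. Of the 3307 genes, 3109 had an interval within 1.5-fold in IPC+IPO against IPC and 3294 within 2-fold. Those shares are close to the 95.1% and 99.5% over all genes. For 3002 of the 3307 the estimate from IPO against IRI lay outside the interval in IPC+IPO against IPC. That count leaves out the error of the estimate from IPO against IRI, so it is no test of whether the 2 differences differ. The median size over the 3307 was 0.422 in IPO against IRI and 0.0653 in IPC+IPO against IPC, and 1951 had the same sign in both. Across all genes the 2 differences had a correlation of 0.066. The sizes in IPO against IRI are those of genes chosen for passing there, so they tend to be overstated. Array spread also moved with that contrast, at 1.908 ± 0.065 in IPO and 1.768 ± 0.111 in IRI, and with spread as a covariate limma called 2 genes in IPO against IRI. Its part in the other calls was not tested.

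Of the genes named here, all but Plin2 and Prim1 were chosen because they led IPO against IRI in earlier results of these data. Their large differences in IPO against IRI come with that choice. Plin2 was among the genes of smallest p for the interaction, and Prim1 among those for IPC+IPO against IPC. Mt1 averaged 11.21 ± 0.540 in IPO and 12.43 ± 0.329 in IRI, a difference of -1.22 ± 0.24 (limma adjusted p = 0.00819), while its interval in IPC+IPO against IPC was -0.57 to 0.41. For Mt2A the difference was -1.52 ± 0.31 in IPO against IRI and the interval in IPC+IPO against IPC was -0.48 to 0.75. Hspd1 was higher by 0.94 ± 0.19 and Dnajb4, a co-chaperone of HSP70, by 0.87 ± 0.16 in IPO than in IRI, beside intervals of -0.19 to 0.57 and -0.48 to 0.16 in IPC+IPO against IPC. Plin2 was higher by 1.08 ± 0.25 in IPO than in IRI, where the interval in IPC+IPO against IPC was -1.18 to -0.16. Slc6a6, the taurine transporter, differed by 1.69 ± 0.40 in IPO against IRI and by -0.47 ± 0.40 (-0.15) in IPC+IPO against IPC. Scd, a desaturase of fatty acid synthesis, differed by 1.45 ± 0.38 in IPO against IRI and by -0.19 ± 0.38 (0.017) in IPC+IPO against IPC. Hsd17b2, a steroid dehydrogenase, differed by -1.58 ± 0.39 in IPO against IRI and by 0.44 ± 0.39 in IPC+IPO against IPC. Prim1 was an exception, at 0.62 ± 0.21 in IPO against IRI (limma adjusted p = 0.0362) and 0.67 ± 0.21 in IPC+IPO against IPC.

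**Figure D5:**
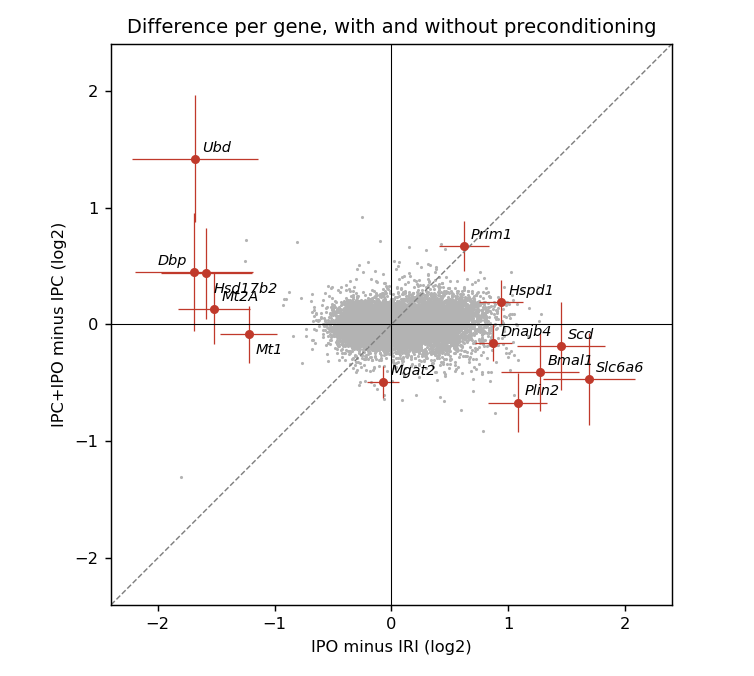
Difference per gene in IPC+IPO minus IPC (vertical, log2) against IPO minus IRI (horizontal, log2), with 13 genes in red and bars of 1 SE; the dashed line marks equal differences. The grey cloud is wider from left to right than from bottom to top, with median sizes of 0.217 and 0.0644, and Prim1 is near the dashed line.

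Whether the cycles acted differently with and without preconditioning was tested as an interaction, IPC+IPO minus IPC minus the difference of IPO and IRI. Limma called 0 of 14506 genes (0%), with 2942 (20.3%) at an unadjusted p under 0.05 and a smallest adjusted p of 0.166. The genes of smallest p were Plin2, at -1.75 (95% interval -2.47 to -1.03), Dnajb4 at -1.03, Pinx1, a nucleolar inhibitor of telomerase, at -0.70, Gar1, a protein of box H/ACA ribonucleoproteins, at -0.61 and Lsm12, an LSm family gene, at -0.52, each with an adjusted p of 0.166. Ubd had 3.10 (95% interval 1.56 to 4.64, adjusted p = 0.166). The interval of the interaction reached a median of 0.338 to either side, wider than that of either difference. The call in IPO against IRI and its absence in IPC+IPO against IPC are therefore not shown to differ for any single gene by this test.

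Variation between animals was compared in the same way, as the distance of each value from its group median. The median SD of a gene was 0.28 in IPC+IPO and 0.24 in IPC, against 0.173 in IPO, 0.312 in IRI and 0.266 in sham. It was larger in IPC+IPO than in IPC for 63.9% of genes, but for 20.8% without animals 37 and 38, when the median SD in IPC+IPO was 0.169. Limma on these distances called 0 genes (0%), with 183 higher (1.26%) and 111 lower (0.765%) at an unadjusted p under 0.05. Tnfrsf12a, the receptor of the cytokine TWEAK, led with a mean distance of 0.140 in IPC+IPO and 0.511 in IPC (adjusted p = 0.436). It lay between 6.70 and 7.28 in all IPC+IPO animals, whereas IPC animals 11, 14, 15, 18 and 19 were at 7.70 to 8.03 and the other 5 at 7.01 or less. Klra2, a natural killer cell receptor gene, was dim, at 3.49 to 3.85 in IPC+IPO and 3.15 to 4.40 in IPC (adjusted p = 0.436).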

How the data were processed

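Liver RNA of 48 rats was measured on Affymetrix arrays, 1 per animal. The deposited log2 values per probe set were made by the authors with RMA in Affymetrix Expression Console, per the submitters' processing notes, and no batch is given in the labels used here. RMA sets all arrays to 1 distribution of probe signals, which can hide a shift of all genes. Of 29215 probe sets, 15310 had 1 symbol in the platform annotation, 323 several and 13582 none here; symbols were updated by Entrez ID, and 15279 were in the RefSeq table (GRCr8). The probe set of highest mean stood for each of 14506 genes, without a filter on dim genes.

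A single limma model (limma 3.58.1, R 4.3.3) held the arrays of all 5 groups, which leaves 43 residual degrees of freedom. Tests were two-sided and without covariates, with Benjamini-Hochberg adjustment over 14506 genes and a threshold of 0.05. A gene is called when it passes. Intervals are limma's moderated 95% intervals. The permutation tests used 100000 resamples. The fit was tested on simulated data with known changes. Figures used matplotlib 3.10.9 in Python 3.11.15.

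Gene lists (648 of 732 listed symbols measured), named genes and alternatives were chosen with earlier results of these data known. The text names genes out of those fixed by a rule, which took the 12 smallest p in each direction, the 3 smallest of each list, the 5 smallest for the interaction and for variation, the 5 widest intervals among bright genes, and 10 genes that led IPO against IRI. Leaving out animals 37 and 38 was added after the data were seen. Alternatives covered the arrays in the fit, the variance model, array weights, scaling, the choice of probe sets, thresholds, array spread as a covariate, and leaving out arrays.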

Additional observations from a re-analysis of the deposited data

Results flagged for a closer look

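In a group of 10, a highest or lowest animal was taken to stand apart when its gap to the nearest animal was a larger part of the group's range than Dixon's 95% critical value. This was applied in both groups to 54 genes taken for the text out of the larger number that the naming rule gave. Of these 108 groups of values 11 passed, 8 in IPC+IPO and 3 in IPC. Chance alone would give about 1 in 20 if the groups of values were independent. They were not, since all genes were read on the same arrays and some were named for their variation or wide intervals. The 11 of 108 are therefore no test of an excess. The same rule was also applied to Alb and to the 9 exocrine pancreas genes, which were picked with their values in view, and another 11 passed. All values are log2 expression. IPC+IPO animal 38 was lowest for Mgat2 at 7.492 (next animal 8.316), for Ltbp4 at 5.607 (next 6.089) and for the sulfiredoxin gene Srxn1 at 5.107 (next 5.416), and highest for Il6 at 4.083 (next 3.6). IPC+IPO animal 37 was lowest for Fdps at 9.233 (next 10.45), for Cyp51 at 8.855 (next 9.568) and for the clock output factor Nfil3 at 6.854 (next 8.013). IPC+IPO animal 34 was highest for Hspe1 at 11.39 (next 11.12). IPC animal 12 was highest for Ubd at 8.382 (next 5.31) and lowest for Mt2A at 9.806 (next 11.25). IPC animal 18 was highest for Il6 at 5.432 (next 4.187). It was also highest for all 9 pancreas genes, Ctrb1 at 11.28, Pla2g1b at 10.52, Cpb1 and Pnlip at 10.49 each, Prss1 at 10.28, Prss3b at 10.23, Sycn at 9.945, Cpa1 at 8.944 and Pnliprp1 at 8.774, where the next IPC animal lay between 3.94 and 6.85. In IPC+IPO animal 38, Pnliprp1 was highest at 4.64 (next 4.004) and Alb lowest at 12.81 (next 13.19).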

How the results depend on the processing

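No paired analysis was possible because animals were numbered 1 to 48 with no number used in more than 1 group. The count of 0 genes called in IPC+IPO against IPC held in every alternative run but renewed quantile normalization, which called 1 gene (Mgat2, adjusted p = 0.0255); it was 0 each time 1 array was left out. Counts at an unadjusted p under 0.05 ran from 195 to 419 without 1 array, highest without IPC+IPO animal 38, and reached 1572 with array weights, 1625 without the 14 arrays of lowest spread and 593 with spread as a covariate. The share of genes within 2-fold was 99.369% without the dimmest 33.3% of genes, 99.182% over all probe sets, 99.373% without IPC+IPO animals 37 and 38, and 99.38% to 99.6% without 1 array. The share within 1.5-fold was 97.429% with array weights, 93.03% without the dimmest genes, 92.168% over all probe sets, 95.802% with renewed quantile normalization, 97.118% with spread as a covariate, 88.853% without animals 37 and 38, and 92.803% to 95.498% without 1 array. The median reach of the interval to either side was 0.24465 with only the groups compared, 0.1627 with array weights, 0.26792 without the dimmest genes, 0.24237 over all probe sets, 0.22573 with renewed quantile normalization, 0.18991 with the covariate, 0.18671 without the 14 arrays, and 0.23247 to 0.24758 without 1 array. In IPO against IRI the count was 41 and 5980 at adjusted p under 0.01 and 0.1, 6098 with array weights, 5033 over all probe sets, 1289 with renewed quantile normalization, 2 with the covariate, 1077 without the 14 arrays, 4989 without animals 37 and 38, and 3071 to 4569 without 1 array. The interaction had 189 genes called with array weights and 1 without the 14 arrays, and variation 2 with array weights. The difference in array spread was 0.0749 without animals 37 and 38 and -0.0089 to 0.0465 without 1 array. The cause of these moves was not tested. Of the 54 genes taken for the text, 47 kept 1 sign through all 1671 alternative values, as did 8 of 28 list medians through 868.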

Other observations

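IPC animal 18 carried transcripts of the exocrine pancreas. The 9 genes given here were picked with their values in view. Prss1 and Prss3b (trypsinogens), Cpa1 and Cpb1 (carboxypeptidases), Ctrb1 (chymotrypsinogen), Pnlip and Pnliprp1 (lipase and a related protein), Pla2g1b (a phospholipase) and Sycn (a zymogen granule protein) were all highest in that animal of its group, at 8.77 to 11.28 on the log2 scale, while the second highest IPC animal was at 3.94 to 6.85 and the highest IPC+IPO animal at 4.06 to 7.02. The mean over the 9 genes was 10.11 in IPC animal 18 and at most 5.58 on any other array of the 48, in IRI animal 7. Without IPC animal 18 limma still called 0 genes in IPC+IPO against IPC, with 248 at an unadjusted p under 0.05. A count that was already 0 with all arrays cannot show how far that array moved single genes. The part of that array in the results of single genes was not tested beyond leaving it out.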
